A study of Homo sapiens with 12 samples.

Results

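Metallothioneins and zinc transporters were followed in human proximal tubular cells (HPTC) treated with the pro-inflammatory cytokine IL-1β or with empagliflozin (Empa), an inhibitor of the sodium-glucose cotransporter SGLT2. The group held 10 genes, chosen by name: the metallothioneins MT1A, MT1E, MT1F, MT1G, MT1H, MT1X and MT2A, the zinc importers SLC39A8 (ZIP8) and SLC39A14 (ZIP14), and the zinc exporter SLC30A1 (ZnT1). They are 10 of 25992 genes named on the array, and 9 of them entered the test over 15717 genes. MT1H was not well above background on any of the 12 arrays and was not tested.

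RNA came from HK-2 cells, which are immortalized with papillomavirus genes, and from RPTEC/TERT1 cells, which are immortalized with telomerase, according to the sample titles. Another label gives HK-2 as the RNA source of every sample, RPTEC titles included, so the labels conflict and each statement on a line rests on the titles. All cells, controls included, were grown at normal glucose, deprived of serum and supplements for 24 h and given fresh medium. During the following 24 h they were left unstimulated (control) or were stimulated with 10 ng/mL of IL-1β or with 500 nM of Empa. None of the arrays carried cells given both agents. Each line and treatment was measured on 2 one-color arrays, which the study describes as independent experiments, so 6 groups of 2 arrays lay on 4 slides, each with the control, IL-1β and Empa array of one line and replicate number. Per the labels, hydrocortisone and transferrin were among the supplements added to the growth medium of RPTEC/TERT1 cells, and HK-2 cells were grown with serum and without these additions. P-values measure the spread between these arrays only. Values below are log2 signals relative to the 75th percentile of the array, and a difference is the treated array minus the control array of its slide.

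Several facts about the arrays bear on these genes. The control array of HK-2 replicate 1, as labelled, was most like that of RPTEC/TERT1 replicate 2 (r = 0.984 across 15329 probes), and that of HK-2 replicate 2 was most like RPTEC/TERT1 replicate 1 (r = 0.973), whereas controls sharing a line label had r = 0.88 and 0.875. Slides are therefore given in the order HK-2 replicate 1, RPTEC/TERT1 replicate 2 (slide pair A), HK-2 replicate 2, RPTEC/TERT1 replicate 1 (slide pair B), and the fit over the 4 slides makes no use of which line a slide carries. Of 19 markers of renal tubular epithelium, 12 were well above background on all 12 arrays, among them KRT8, EPCAM, PAX8, LRP2, AQP1 and SLC5A2. CDH1, PAX2 and ANPEP were on 6 arrays, SLC34A1 on 4 and CUBN on 1, while SLC22A6 and HNF4A were on none. Of the markers of other cell types, PTPRC, CD68 and CDH5 were also well above background on all 12 arrays, and no fibroblast marker was on all 12. The fibroblast markers COL1A1, DCN and LUM were on 11, 8 and 6 arrays and the leukocyte marker CD14 on 11. The rest were on 3 or fewer. Between 7 and 198 probes per array were saturated. The highest number was on the IL-1β array of HK-2 replicate 2, whose lowest saturated log2 signal was 6.23. Across the arrays, 52.7 to 63.1% of the probes were well above background.

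Metallothioneins are small, cysteine-rich proteins that bind zinc, copper and cadmium and that buffer free zinc. Their genes are switched on by metals through the transcription factor MTF1, which binds metal response elements, and also by glucocorticoids and inflammatory signals. ZIP8 and ZIP14 carry zinc, and also iron, manganese and cadmium, into the cytosol, and ZIP14 is known from the acute-phase response of the liver, whereas ZnT1 sits in the plasma membrane and carries zinc out. The proximal tubule takes up filtered metallothionein and cadmium and is a known site of cadmium injury.

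The metallothionein genes lie side by side on chromosome 16 and are alike in sequence, so the array's 60-base probes were compared first. The following probes are shown because their signals are read below as those of single genes. Capitals mark the longest run of bases that a probe shares with a probe for another metallothionein, which for the first 3 is MT1A with MT1HL1 (27 bases) and MT1X with MT1HL1 (26 bases).
MT1A: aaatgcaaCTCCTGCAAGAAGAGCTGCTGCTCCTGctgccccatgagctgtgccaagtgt
MT1HL1: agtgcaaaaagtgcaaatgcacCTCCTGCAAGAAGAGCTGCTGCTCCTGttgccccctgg
MT1X, coding probe: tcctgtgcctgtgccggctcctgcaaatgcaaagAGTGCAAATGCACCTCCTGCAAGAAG

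The probes of MT1E and MT1B share 17 bases, of which the first 30 bases of each probe show the beginning. The second MT1X probe and the MT1F probe end in the same 15 bases, shown as the last 30 bases of each. Capitals mark the bases shared within each pair.
MT1E, bases 1 to 30: ggcatcggagaagtgcaGCTGCTGTGCCTG
MT1B, bases 1 to 30: tcatcagagaagtgccGCTGCTGTGCCTGA
MT1X, second probe, bases 31 to 60: tagagcaacctatatAAACCTGGATTTTTT
MT1F, bases 31 to 60: cagagagacatgtacAAACCTGGATTTTTT

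The coding probes of MT1A and MT1X can be read in a frame without a stop that holds 8 and 7 cysteine codons. In the best ungapped alignment, MT1A matched the MT1HL1 probe at 42 of 46 bases, MT1X matched it at 33 of 35, MT1E matched MT1B at 49 of 59, and the second MT1X probe matched MT1F at 49 of 60. After the mean of each slide was subtracted, the signals over the 12 arrays correlated with r = 0.872 for MT1A and MT1HL1, 0.969 for the MT1X coding probe and MT1HL1, and 0.966 for MT1E and MT1B. The second MT1X probe and MT1F, although alike at 81.7% of the aligned bases, had r = -0.204. Pairs of probes that share little sequence correlated as highly, with r = 0.984 for MT1E and MT1HL1 (longest shared run 8 bases). For MT1E and the MT1X coding probe (9 bases) r was 0.956. Probes were compared only with each other, so a short shared run does not show how much a probe shares with the other gene's transcript. The points share their arrays and treatments, these correlations do not separate probes alike in sequence from others, and whether a probe binds the transcript of a neighboring gene was not tested. The brighter MT1E probe and the MT1F probe each shared a run of 19 bases with the MT1L probe, which lacked a value on some array. MT1F also matched the MT1H probe at 46 of 60 bases, and the second MT1X probe matched it at 44 of 60. By their shared bases alone, the signals of MT1A, both MT1X probes, the brighter MT1E probe and MT1F are values of probes that may also read their relatives.

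The probes lie on hg19 as follows. On chromosome 16 the MT2A probe lies at chr16:56643332-56643391, the brighter MT1E probe at chr16:56660853-56660912, the MT1F probe at chr16:56693077-56693136 and the MT1G probe at chr16:56700694-56700752. The MT1X coding probe lies at chr16:56717082-56717141, its second probe at chr16:56717962-56718021, the dim MT1E probe at chr16:56660614-56660673 and the MT1H probe at chr16:56704902-56704961. The MT1A probe is placed over 604 bases of the chromosome, from 56673205 to 56673808, more than its 60. The brighter SLC39A8 probe lies at chr4:103182951-103183010, the other at chr4:103172416-103172475, and the SLC30A1 probe at chr1:211748842-211748901.

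IL-1β upregulated 5 of the 9 tested genes and downregulated 0, at an adjusted p under 0.05 (limma with the slide as a block, Benjamini-Hochberg over 15717 genes). They were the importers SLC39A14 and SLC39A8 and the metallothioneins MT1X, MT1E and MT1G. Of all genes tested, 4.53% were called higher and 7.91% lower with IL-1β. The median log2 difference was 0.85 over the 9 genes and -0.11 over all genes. Of the 9 genes, 5 were above control on 4 of 4 slides, against 15.0% of all genes. They were the same 5 that were called on these slides, so this count is no further support for the calls. Without the slide block, limma called 0 of the 9 genes, with adjusted p of 0.174 for SLC39A14, 0.204 for MT1X, 0.459 for SLC39A8, 0.462 for MT1E and 1 for MT1G.

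**Figure D1:**
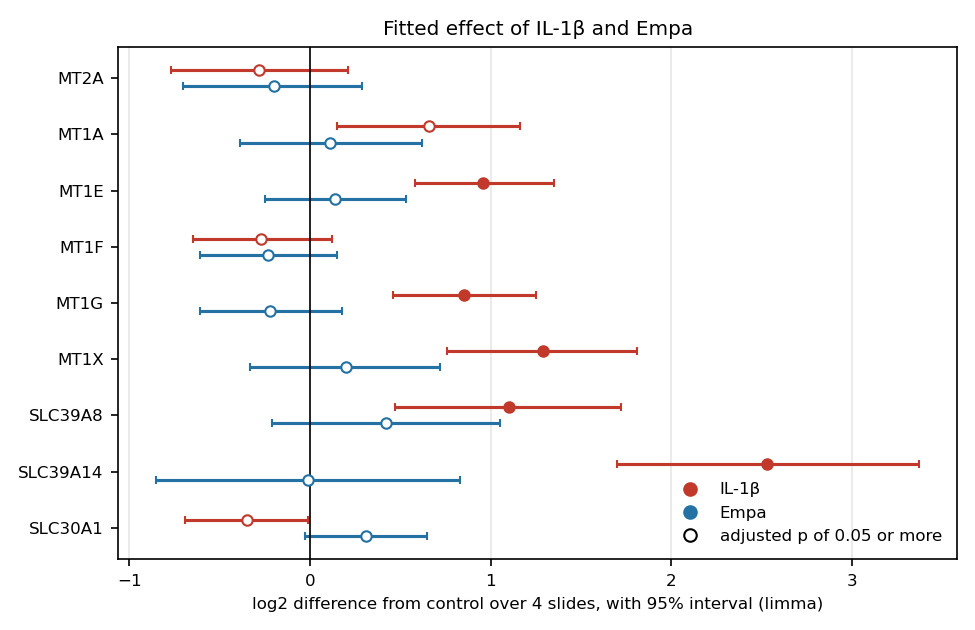
Fitted log2 difference from control (x axis) of the 9 tested genes with IL-1β and with Empa over 4 slides. Points are limma estimates and bars 95% intervals, and filled points passed an adjusted p of 0.05. With IL-1β, SLC39A14 (2.53) lies farthest to the right, and no Empa point is filled.

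SLC39A14, which imports zinc and non-transferrin-bound iron, had the largest difference of the 9 genes with IL-1β. Its log2 signal in the controls was 1.59, 1.70, 2.94 and 3.03 on the 4 slides, and with IL-1β it was 5.25, 4.97, 4.45 and 4.72. Every IL-1β array was above every control array. The folds were 12.6 and 9.66 on slide pair A and 2.85 and 3.24 on slide pair B, where the controls were higher. The fitted log2 difference was 2.53 (SE 0.37, n = 4 slides, adjusted p = 0.0037 from limma), and it passed on either slide pair alone, with 3.46 on pair A (adjusted p = 0.000521, limma) and 1.61 on pair B (adjusted p = 0.00618, limma). A second, dimmer probe was well above background on the 4 IL-1β arrays and on none of the others. There IL-1β was at least 3.39-, 4.92-, 2.09- and 2.85-fold higher, where at least means against the lowest signal well above background on the control array or the probe's own signal, whichever was higher.

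SLC39A8, whose product brings zinc, manganese and cadmium into cells, had control log2 signals of 0.07, 0.60, 0.77 and 0.26. With IL-1β they were 1.77, 2.04, 1.60 and 0.67. Each IL-1β array was above its own control, by 3.24- and 2.72-fold on slide pair A and by 1.79- and 1.33-fold on pair B, but the IL-1β array of RPTEC/TERT1 replicate 1 was below the control of HK-2 replicate 2, so the groups overlapped. limma gave a log2 difference of 1.10 (SE 0.28, n = 4 slides, adjusted p = 0.0342 from limma). The call was lost when any 1 of 7 arrays was left out: the 4 controls, the IL-1β arrays of HK-2 replicate 1 and RPTEC/TERT1 replicate 2, or the Empa array of HK-2 replicate 2, with adjusted p between 0.0512 and 0.125 (limma). It was also lost after normexp (adjusted p = 0.0503, limma), without the filter on dim probes (adjusted p = 0.0849, limma) and on slide pair B alone (0.62, adjusted p = 0.0924, limma). A probe for another SLC39A8 transcript was well above background on the 4 IL-1β arrays and the Empa array of HK-2 replicate 2, and with IL-1β it was at least 8.88-, 9.92-, 2.34- and 1.32-fold higher.

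SLC30A1, the exporter, did not pass the test. Its control log2 signals were -0.18, -0.24, -0.37 and -0.44, against -0.47, -0.48, -1.09 and -0.59 with IL-1β and 0.28, -0.03, -0.30 and 0.08 with Empa. Every IL-1β array was below every control array. Each Empa array was above the control of its slide, while the ranges of Empa and control overlapped. On the log2 scale the fitted difference was -0.35 for IL-1β (SE 0.15, adjusted p = 0.167, limma) and 0.31 for Empa (SE 0.15, adjusted p = 0.437, limma). Of all genes, 24.8% were below control with IL-1β on 4 of 4 slides, 12.5% were above control with Empa on 4 of 4, and 2.11% were both. SLC30A1 was the 1 gene of the 9 with that pattern.

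**Figure D2:**
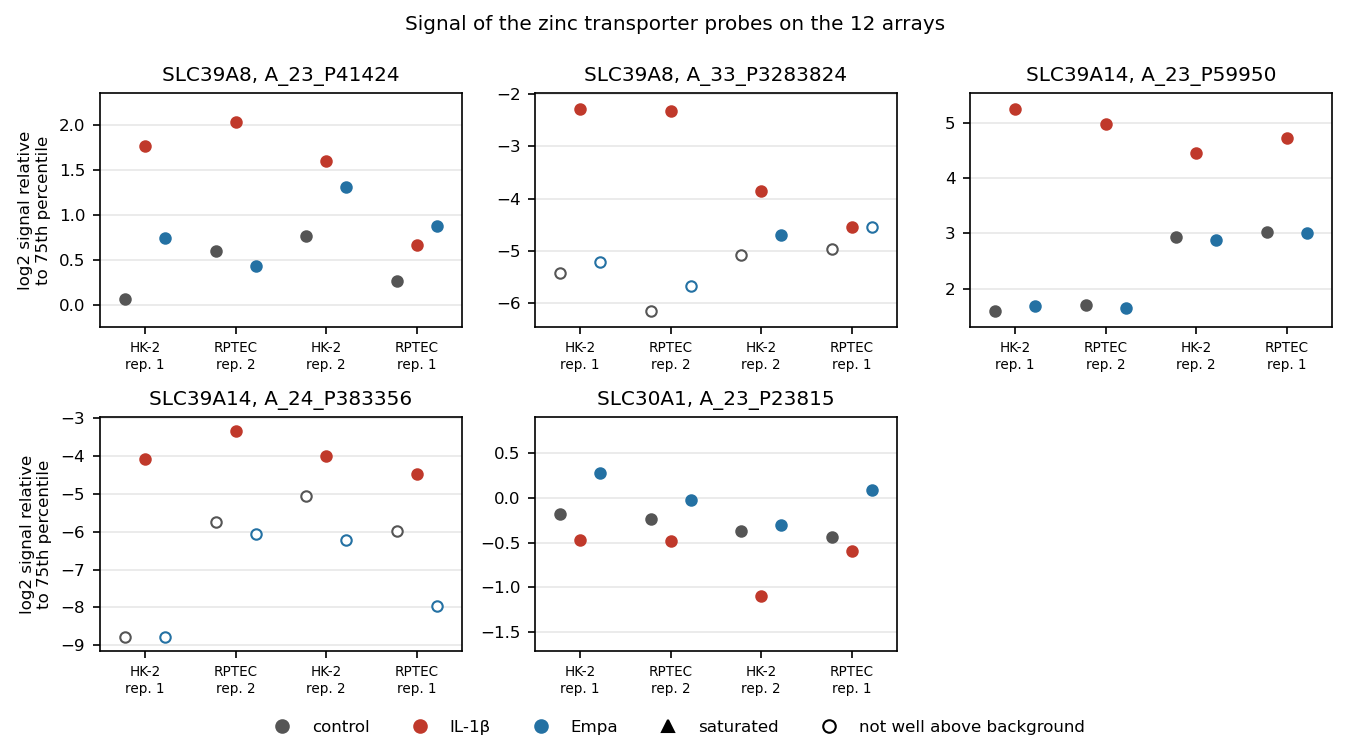
Log2 signal relative to the 75th percentile (y axis) of each zinc transporter probe on each array, by slide (x axis) and treatment (color). Open points were not well above background. On its brighter probe, SLC39A14 with IL-1β reaches 4.45 or more on every slide. SLC30A1 with IL-1β is below the control of its slide each time.

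Of the 6 tested metallothioneins, 3 passed with IL-1β. MT1X, an isoform known to respond strongly to metals, was upregulated by IL-1β on both of its probes. On the second probe, never saturated, the control log2 signals were 1.11, 0.91, 2.05 and 2.26, and those with IL-1β were 2.04, 2.22, 3.57 and 3.75. Each IL-1β array exceeded its control, by 1.91- to 2.87-fold, although the IL-1β arrays of slide pair A were below the control of RPTEC/TERT1 replicate 1, so the groups overlapped. Over the slides the log2 difference was fitted as 1.31 (SE 0.22, adjusted p = 0.00731, limma over every probe). The bright coding probe, saturated on 2 of the IL-1β arrays, gave 1.29 (SE 0.23, adjusted p = 0.00919, limma over 1 probe per gene). Its fold was at least 3.14, 3.83, at least 1.36 and 2.16 on the 4 slides. With the coding probe, MT1X did not pass on slide pair B alone (adjusted p = 0.0713, limma), where one of the IL-1β arrays was saturated.

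MT1E, another inducible isoform, had control log2 signals of 5.46, 5.90, 5.73 and 5.19 on its brighter probe and 6.72, 7.04, 6.23 and 6.15 with IL-1β. Every IL-1β array was above every control array. The folds were 2.38, 2.20, at least 1.41 (saturated) and 1.95, and the fitted log2 difference was 0.96 (SE 0.17, adjusted p = 0.00865, limma). The dim second probe, never saturated, was higher on 4 of 4 slides too, by 1.51- to 3.59-fold, with a fitted log2 difference of 1.15 (SE 0.24, adjusted p = 0.018, limma over every probe). On slide pair B alone the brighter probe gave 0.73 with an adjusted p of 0.0601 (limma).

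MT1G, which is dim on this array, had control log2 signals of -4.03, -4.73, -2.26 and -1.81, and -2.77, -4.10, -1.70 and -0.85 with IL-1β. The slide pairs were farther apart than the treatments, and the groups overlapped. Within slides the folds were 2.38, at least 1.56, 1.47 and 1.95, and the fitted log2 difference was 0.85 (SE 0.18, adjusted p = 0.0155, limma). The probe was well above background on 10 of 12 arrays. The call was lost without the control array (adjusted p = 0.0569, limma) or the IL-1β array (adjusted p = 0.052, limma) of HK-2 replicate 1. It was also lost with the slide as a random block (adjusted p = 0.189, limma) and on slide pair A (adjusted p = 0.0776, limma) or B (adjusted p = 0.0511, limma) alone. The log2 difference was 0.29 after normexp background correction (adjusted p = 0.57, limma) and 0.35 in the authors' table (adjusted p = 0.137, limma), so the size for MT1G depended on how the dim signal was processed. MT1H, next to MT1G in the cluster, was near background throughout, and no fold is given for it.

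MT1A, MT1F and MT2A did not pass. MT1A had control log2 signals of 6.21, 6.28, 6.67 and 6.06, and 7.24, 7.36, 6.39 and 6.85 with IL-1β, the first 3 of them saturated. IL-1β was at least 2.05- and 2.11-fold higher on slide pair A and 1.73-fold higher in RPTEC/TERT1 replicate 1, while in HK-2 replicate 2 the saturated spot allows no fold. The fitted log2 difference was 0.66 (SE 0.22, adjusted p = 0.0894, limma). MT1A passed under quantile normalization (0.81, adjusted p = 0.0203, limma), in the authors' table (0.78, adjusted p = 0.0214, limma) and on slide pair A alone (1.06, adjusted p = 0.0322, limma). It also passed with an array of HK-2 replicate 2 left out: the adjusted p was 0.0464 when its control array and 0.017 when its IL-1β array was left out (limma).

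MT2A, the most widely expressed human isoform, was at the top of the scanner's range. Its control log2 signals were 7.40, 7.54, 7.48 and 7.25, and 7.35, 7.43, 6.46 and 7.31 with IL-1β. The probe was saturated on 7 arrays, all 4 IL-1β arrays among them, so a rise could be shown only as a bound: 1.04-fold or more on the slide of RPTEC/TERT1 replicate 1, and no fold on the other slides. The fitted log2 difference of -0.28 (SE 0.22, adjusted p = 0.434, limma) is a difference between spots at that limit, and its sign turned under quantile normalization (0.09) and in the authors' table (0.08).

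MT1F was never saturated, and its level was set apart by slide pair. Its control log2 signals were 5.29 and 5.39 on slide pair A and 3.1 and 2.76 on pair B. With IL-1β they were 4.85, 4.93, 2.88 and 2.81, lower on 3 slides and 0.05 higher in RPTEC/TERT1 replicate 1. The log2 difference from the fit was -0.27 (95% interval -0.65 to 0.12, adjusted p = 0.341, limma), an interval that does not reach the values of MT1E, MT1G or MT1X. Differences between these genes were not tested.

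**Figure D3:**
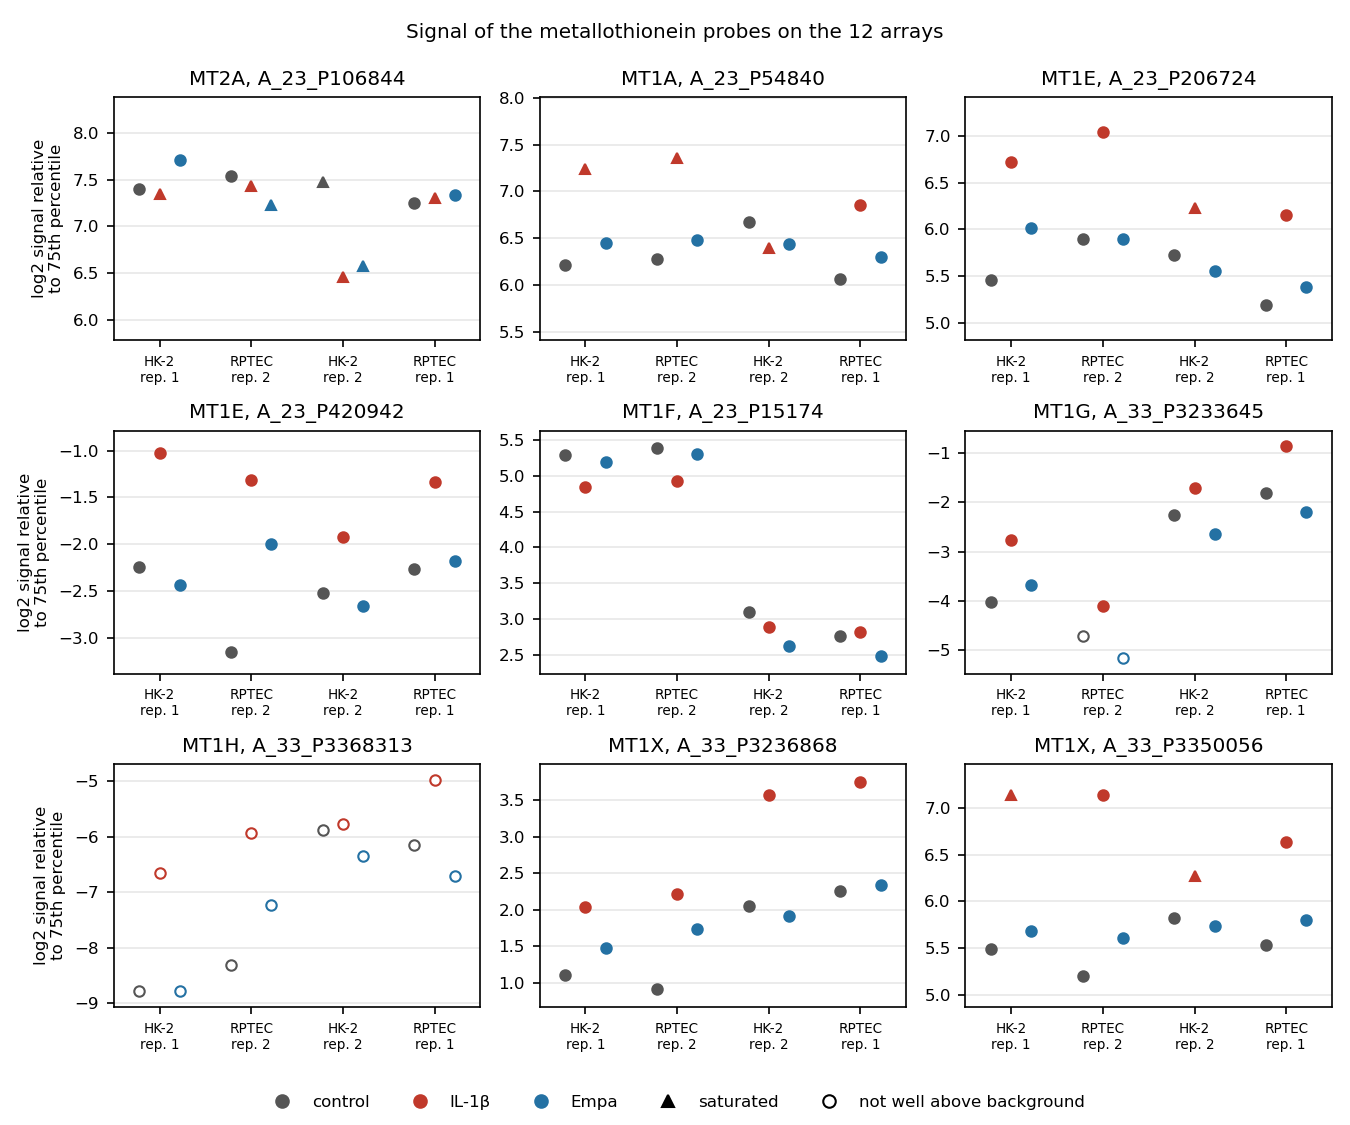
Log2 signal relative to the 75th percentile (y axis) of each metallothionein probe on each array, by slide (x axis) and treatment (color). Triangles are saturated spots and open points not well above background. MT2A and MT1A sit near the ceiling with IL-1β, and MT1F falls into a high and a low slide pair whatever the treatment.

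Along the cluster, MT1E, MT1G and MT1X passed the test with IL-1β while MT1F, which lies between MT1E and MT1G, did not. The array also names 9 other genes listed with the metallothioneins, MTL5 among them, of which 6 were tested. With IL-1β 3 were higher and 1, MTL5, lower, where 4.53% of all genes were called higher and 7.91% lower. The median log2 difference of the 6, MTL5 included, was 0.63, against -0.11 over all genes. MT1M, in the cluster between MT1E and MT1A, had a fitted log2 difference of 0.94 (SE 0.18, adjusted p = 0.0119, limma), never saturated and close to equal on the slides (0.90, 1.08, 1.02 and 0.75). MT1B (1.02) and MT1HL1 (1.31) passed too, on probes that share sequence with those of MT1E and MT1A as shown above. The MT1B probe was saturated on 2 IL-1β arrays and the MT1HL1 probe on 1. In HK-2 replicate 2, where both were saturated, the folds were at least 1.06 and 1.87. The gene that fell by 1.22 on the log2 scale was MTL5, which encodes tesmin, a protein that was named after metallothionein but is not one of these small proteins. The called MTL5 probe was well above background on 11 arrays. A dimmer second MTL5 probe gave -0.64 and did not pass (adjusted p = 0.125, limma over every probe). MT3 (0.08) and the pseudogene MT1IP (0.32) did not pass.

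**Figure D4:**
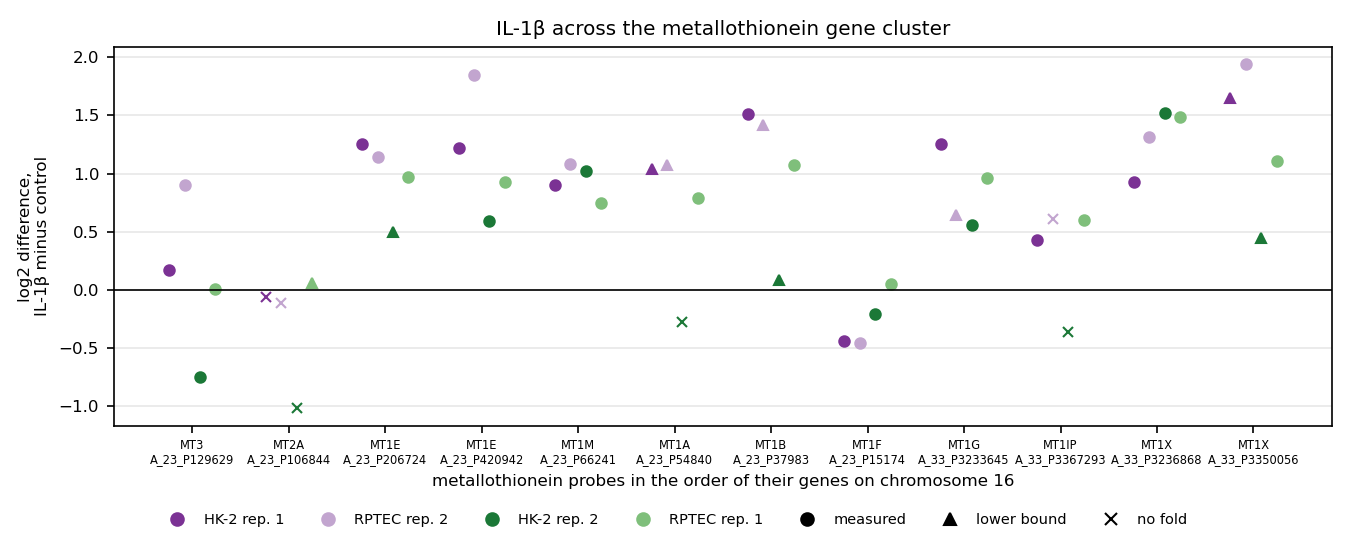
Log2 difference, IL-1β minus the control of the same slide (y axis), for metallothionein probes in gene order on chromosome 16 (x axis). Upward triangles are lower bounds and crosses allow no fold. MT1E, MT1M, MT1G and MT1X lie above 0 on all 4 slides, and MT1F lies between -0.46 and 0.05.

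Upstream sequences were read from RefSeq on GRCh38.p14, 250 bases before the start of the gene, where the table held them: MT2A, MT1H, MT1X, SLC30A1 and SLC39A8 among the members. They are shown because metal response elements lie in such stretches. Capitals mark TGCACNC or TGCGCNC, the letters searched for this element, on either strand, with overlapping matches counted each.
MT2A (chr16:56608334-56608583, + strand): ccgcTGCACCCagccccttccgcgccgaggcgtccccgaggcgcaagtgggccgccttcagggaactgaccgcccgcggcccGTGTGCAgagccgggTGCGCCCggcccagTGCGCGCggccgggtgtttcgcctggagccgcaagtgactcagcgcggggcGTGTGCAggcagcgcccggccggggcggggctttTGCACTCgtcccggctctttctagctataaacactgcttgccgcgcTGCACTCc
MT1X (chr16:56682220-56682469, + strand): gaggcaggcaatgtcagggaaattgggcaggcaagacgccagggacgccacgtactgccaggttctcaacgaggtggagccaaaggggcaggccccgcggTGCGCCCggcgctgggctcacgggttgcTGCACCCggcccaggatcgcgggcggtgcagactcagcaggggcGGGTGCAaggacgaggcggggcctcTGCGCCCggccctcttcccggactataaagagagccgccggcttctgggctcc
SLC30A1 (chr1:211579162-211579411, - strand): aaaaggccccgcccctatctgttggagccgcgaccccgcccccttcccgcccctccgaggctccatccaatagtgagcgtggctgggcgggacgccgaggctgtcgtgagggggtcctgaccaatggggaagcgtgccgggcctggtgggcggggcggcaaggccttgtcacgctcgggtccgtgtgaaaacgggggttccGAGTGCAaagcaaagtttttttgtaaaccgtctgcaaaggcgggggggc

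The MT2A stretch held 7 matches, that of MT1H 8, that of MT1X 4 and that of SLC30A1 1, while SLC39A8 had 0, 0 and 1 at its 3 listed starts. Of all 35116 upstream stretches of this length, 24.8% held at least 1 match and 1.58% held 3 or more. The letters TTCNNNGAA, bound by STAT factors, occurred in 6.6% of the stretches and once in that of MT2A. A match describes the letters only.

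With Empa, 0 of the 9 genes passed (limma, adjusted p between 0.437 and 0.995), and 0 had an unadjusted p under 0.05. Of all genes, 0.00636% were called with Empa, and 1888 of 15717 had an unadjusted p under 0.05. The median log2 difference was 0.11 over the 9 genes and -0.02 over all. The fitted log2 difference of SLC39A14 was -0.01 (95% interval -0.85 to 0.83), and its Empa arrays, at 1.69, 1.65, 2.88 and 3.00, lay within 0.10 of their controls. For SLC39A8 the Empa log2 signals were 0.74, 0.43, 1.31 and 0.88, higher than control on 3 of 4 slides, with a fitted difference of 0.42 (95% interval -0.21 to 1.05). MT1X gave 0.20 (95% interval -0.33 to 0.72), MT1E 0.14 (-0.25 to 0.53) and MT1G -0.22 (-0.61 to 0.18), so changes of the size seen with IL-1β in these 3 genes lie outside their Empa intervals.

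MT1F was below control with Empa on 4 of 4 slides, at 5.20, 5.31, 2.62 and 2.48, as were 13.9% of all genes. Its fitted log2 difference of -0.23 (95% interval -0.61 to 0.15) did not pass. MT1A gave 0.11 (95% interval -0.39 to 0.62). MT2A gave -0.20 (95% interval -0.70 to 0.29), with a sign that turned under quantile normalization (0.07) and in the authors' table (0.03). The IL-1β and Empa comparisons share their control arrays, so no relation between them was computed.

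**Figure D5:**
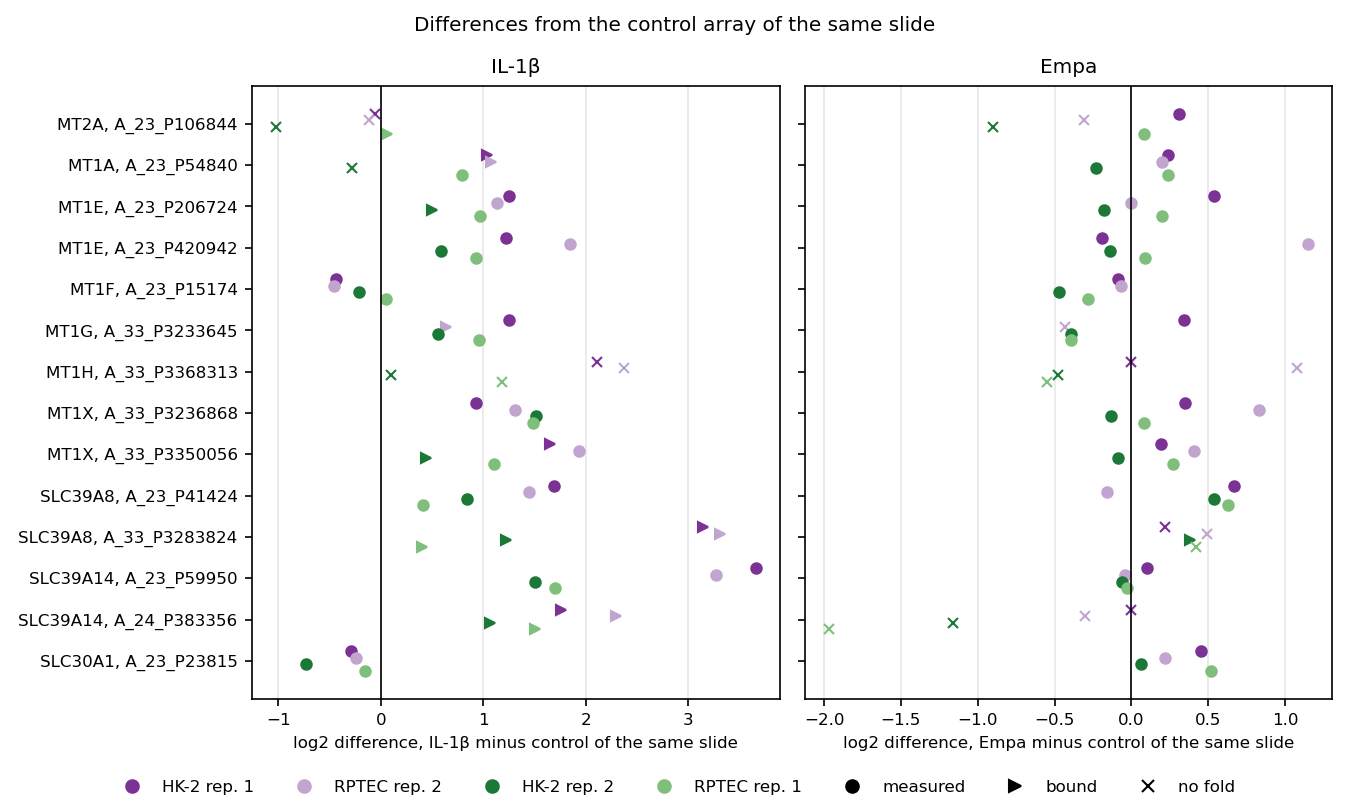
Log2 difference between each treated array and the control array of its slide (x axis) for the 14 probes of the 10 genes (y axis), IL-1β on the left and Empa on the right. Arrowheads are bounds and crosses allow no fold. With IL-1β the points of SLC39A14 and MT1X lie to the right of 0 on all slides, and with Empa those of SLC39A14 on its brighter probe lie within 0.10 of 0.

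Between the lines as labelled, a difference in response passed for 0 of the 9 genes (adjusted p = 1 for each, limma's interaction term), against 0.0% of all genes for IL-1β and 0.0% for Empa. Before adjustment, 273 and 154 of all genes were below 0.05, and none of the 9 was. For SLC39A14 the difference in the IL-1β effect, RPTEC/TERT1 minus HK-2, was -0.10 with an SE of 0.85, which leaves large differences undetectable. Each line label took in a slide of pair A and a slide of pair B. A difference in response that follows the slide pairs therefore largely cancels in this contrast and widens its SE. The absence of calls does not show that the lines responded alike.

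The control levels of several genes differed between the slide pairs more than between the line labels. On the log2 scale, pair B minus pair A was -2.41 for MT1F, 2.35 for MT1G, 1.34 for SLC39A14 and 1.15 for the second MT1X probe, while the difference between the labels, HK-2 minus RPTEC/TERT1, lay between -0.09 and 0.13 for these probes. Some other probes differed less between the pairs. The MT1X coding probe had 0.33 between the pairs and 0.29 between the labels. MT1A differed more between the labels, with 0.12 between the pairs and 0.26 between the labels. Pair B minus pair A was 0.18 for the brighter SLC39A8 probe and -0.19 for SLC30A1, with label differences of -0.01 and 0.07. MT2A was at or near saturation in the controls, and no difference between the pairs is given for it. The pairs were set by the likeness of the arrays, so these values are a description. Whether fewer cells with a transcript or less of it per cell lay behind a lower signal cannot be told apart in RNA from whole cultures.

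Of 10 other ZIP importers tested, 0 passed with IL-1β (limma), with 2 below 0.05 before adjustment, against 4434 of 15717 among all genes, and a median log2 difference of 0.21, against -0.11 over all genes. Of 7 other ZnT exporters, 1 passed: SLC30A4, which loads zinc into vesicles, fell by 1.56 on the log2 scale (SE 0.31, adjusted p = 0.0137, limma), measured well above background on 9 arrays. Of all genes, 7.91% were called lower with IL-1β. Among these 7 exporters, 3 were below 0.05 before adjustment, and the median log2 difference was 0.13. With Empa neither list had a call or a gene below 0.05 before adjustment, and the medians were -0.21 and 0.22.

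Of 21 tested genes of metal-responsive transcription and of iron, copper and manganese handling, 4 rose and 2 fell with IL-1β (median log2 difference 0.01), where 4.53% of all genes were called higher and 7.91% lower. The 2 that fell are close to that general share. TFRC, the transferrin receptor, had a log2 difference of 1.95 (SE 0.23, adjusted p = 0.0014, limma), and SLC11A2, the iron importer DMT1, 1.92 (SE 0.40, adjusted p = 0.0167, limma). SLC31A2, a copper transporter, gave 1.13 (adjusted p = 0.0225, limma). LCN2, which binds iron-carrying siderophores, passed as well (adjusted p = 0.0363, limma), but was well above background on only 8 arrays. The iron exporter SLC40A1 (ferroportin) fell by 0.77 (adjusted p = 0.014, limma) and the copper pump ATP7B by 0.77 (adjusted p = 0.0237, limma). MTF1 itself gave 0.39 (adjusted p = 0.179, limma). With Empa 0 of the 21 passed (2 at an unadjusted p under 0.05).

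Another list held 14 tested genes of the IL-6, NF-κB and glucocorticoid branches, which act on metallothionein and ZIP14 genes. With IL-1β 3 rose: IL6 by a log2 difference of 6.95 (adjusted p = 0.00146, limma), NFKBIA by 3.69 (adjusted p = 0.00152, limma) and NFKB1 by 2.11 (adjusted p = 0.0141, limma). The glucocorticoid target ZBTB16 fell by 0.91 (adjusted p = 0.0167, limma). Of all genes, 4.53% were called higher and 7.91% lower, and 1 lower gene of 14 is close to that share. STAT3 (0.04), SOCS3 (-0.13) and the glucocorticoid receptor gene NR3C1 (0.02) did not pass. The list's median was 0.03, and with Empa 0 of the 14 passed (1 at an unadjusted p under 0.05).

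For 5 members the genes most alike in pattern were sought among 12612 genes well above background on all 12 arrays, by Pearson's r over the 12 arrays after the mean of each slide was subtracted. SLC39A14 was most like SOD2 (0.997), CXCL2 (0.996) and CTPS1 (0.995), and SLC39A8 was close to MAP3K2 (0.985) and PAXIP1 (0.978). MT1X was nearest to FDFT1 (0.987), LGALS8 (0.985) and ARFGAP3 (0.982), and SLC30A1 to RMI2 (0.98), TCHP (0.967) and KIAA2013 (0.964). MT2A was nearest to THC2769821 (0.988), RPS12 (0.981) and RPL36A (0.98), and the probes of RPS12 and RPL36A were saturated on 7 and 6 arrays. These values were selected as the highest of many over 12 arrays with 3 treatments, and they are a description.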

How the data were processed

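Total RNA was labelled with Cy3 and hybridized to 12 one-color Agilent arrays. The authors deposited the intensities from Feature Extraction 9.5.3.1, which per the file headers are background-subtracted and not normalized between arrays, and a table of log2 values that they describe as quantile-normalized. Each array's signal was scaled by its 75th percentile, values under 1 signal unit were set to 1, and log2 was taken. Control spots (1377) and outlier spots were left out, and the spots of a probe were averaged. Of 34127 probes, 33483 had values throughout. That percentile ranged from 298 to 765 signal units.

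A probe entered the test if some group had both of its arrays well above background for it, and the brightest such probe stood for its gene. All 12 arrays went into limma 3.58.1 (R 4.3.3), with the slide as a block, 1 effect per treatment and 6 residual degrees of freedom. P-values were adjusted over 15717 genes by Benjamini and Hochberg's method. Arrays of a slide deviated together from their group means (r between 0.592 and 0.906). The replicate slides of a line label gave identical values, because their deviations from a shared mean mirror each other. These replicates also fell into different slide pairs, so a positive r can come from the slide pair alone. The values therefore cannot decide the pairing, which rests on the slide that arrays shared and on their replicate number. A difference between the lines was an interaction term. Folds from saturated or dim spots are bounds. The fit was tested on simulated data. The number of arrays limits the precision.

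The members, lists and tests were chosen with earlier results of these data known. All members, every probe of theirs, list genes past the threshold and the 3 genes most alike to each of 5 members were named, except 1 gene that is not reported here, and some list genes that did not pass were named after their values were seen. Alternatives were no slide block, a random block, quantile normalization, normexp with an offset of 50, the authors' table, other filters, every probe, a floor of 5 signal units, outlier spots kept, each array left out, and each line alone. A fit on probes never saturated and fits on each slide pair were added after seeing the data. Probe positions are those of the array annotation (hg19), and upstream sequences come from RefSeq (GRCh38.p14).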

Additional observations from a re-analysis of the deposited data

How the results depend on the processing

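The count of 5 members upregulated by IL-1β was 4 to 6 under most alternatives. It was 0 without the replicate block, 0 on the arrays labelled HK-2 alone, 0 on those labelled RPTEC/TERT1 alone, 3 after normexp background correction and 1 (SLC39A14) on slide pair B alone, against 5 on slide pair A, which has as many arrays. The cause was not tested. The 5 on slide pair A, and the 5 in the authors' table, included MT1A and lacked MT1G. With each array left out in turn it lay between 3 and 6, with 3 without the control or the IL-1β array of HK-2 replicate 1. MT1E, MT1X and SLC39A14 kept their calls in all 12 of these fits. On probes never saturated the same 5 genes passed. The Empa count was 0 under every alternative run. Over all genes, 1956 passed with IL-1β, against 8 without the replicate block, 46 on the arrays labelled HK-2 alone, 0 on those labelled RPTEC/TERT1 alone and 791 to 2966 with each array left out in turn (791 without the control and 811 without the IL-1β array of RPTEC/TERT1 replicate 2, 797 without the control of HK-2 replicate 1). With Empa 1 gene of all passed, and 0 to 3 under the alternatives. The signs that turned belonged to values that had not passed. MT2A with IL-1β was 0.09 after quantile normalization and 0.08 in the authors' table with the replicate block, and with Empa 0.07 and 0.03, and between -0.34 and 0.03 with single arrays left out. MT1G with Empa was 0.02 after normexp. SLC39A14 with Empa was 0.02 on the arrays labelled HK-2, 0.03 on slide pair A, and between -0.21 and 0.17 with single arrays left out (0.14, 0.13, 0.13 and 0.17 where the sign turned). Saturation limits MT2A and MT1A, and background limits MT1G, MT1H and the second probes of SLC39A8 and SLC39A14.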
